A study of Mus musculus with 28 samples.

Results

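Ubiquitin-conjugating and ubiquitin-removing enzymes were followed in blood cells of mice 6 h after total body irradiation. The members are the array probes whose only gene symbol in the platform annotation starts with Ube2, with Usp and a digit (Usp18 left out), with Uch or with Otu. This rule gave 70 of 16722 probes, for 56 genes, and all 70 were tested. They were 32 Ube2 probes, 28 Usp probes and 10 Uch or Otu probes. The samples were peripheral blood mononuclear cells (PB MNCs) from 28 female C57Bl6 mice, 10 weeks old, with 1 array per mouse and 7 mice per group. The groups were Normal (nonirradiated controls, 0 cGy), 50cGy, 200cGy and 1000cGY, and no group carried a transgene or drug. The question was how the RNA levels of these enzymes differed with the dose.

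Ubiquitin is a small protein that cells attach to other proteins. An activating enzyme charges it, a conjugating enzyme (the Ube2 family) carries it, and a ligase transfers it to its target, often as a chain. Some chains send the target to the proteasome, while others serve as platforms in DNA repair and immune signalling. Deubiquitinases cut ubiquitin off again, and the USP, UCH and OTU families differ in the fold of their catalytic domain. In irradiated cells the system acts at DNA breaks, at stalled replication forks and on the turnover of p53.

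Each value is the log2 ratio of a mouse's RNA (Cy5) to a universal mouse reference RNA (Cy3), with every array centred on its median, so values of different probes cannot be set against each other. Log2 fold changes are irradiated minus control, between group means, each with its standard error (SE). limma fitted 16600 probes, and a probe was called higher or lower when its p, adjusted by Benjamini-Hochberg over all of them, was under 0.05. The dye fields of 6 samples hold running numbers, but the study's methods give the same dyes for all arrays, and every pair of arrays correlated positively over probes (r from 0.755 to 0.987). The array medians before centring ranged from -0.31 to -0.12 in controls and from -0.52 to -0.34 at 1000 cGy. Without centring, the median over all probes (log2 fold change) moved from 0.03 to -0.07 for 200 cGy and from 0.13 to -0.12 for 1000 cGy, and quantile normalization gave -0.02 at 1000 cGy. Of the member values 4 are missing. Usp53 had 5 of 7 values at 1000 cGy, and Usp38 and Ube2q2 had 6 of 7 values at 50 cGy.

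The cell markers in these samples changed with dose. Of 7 probes of B cell markers, 2 were lower at 50 cGy (0 without centring or after quantile normalization) and all 7 at both higher doses. The mean log2 ratio of their 6 genes ran from 3.23 to 4.02 in controls (median 3.74), from 3.00 to 3.62 at 50 cGy, from 1.29 to 2.01 at 200 cGy and from 0.01 to 0.53 at 1000 cGy (median 0.30). Neutrophil markers, of cells that a mononuclear preparation should hold few of, were higher in 6 of 6 probes at 200 and at 1000 cGy, and their 5 genes ran from 2.29 to 4.19 in controls and from 5.62 to 6.49 at 1000 cGy. Monocyte markers were higher in 5 of 5 probes and platelet markers in 4 of 4 at both doses, but after quantile normalization 4 monocyte probes were higher at 200 cGy and 3 at 1000 cGy, and 3 platelet probes were higher at 200 cGy. The 4 T cell genes ran from 3.21 to 3.54 in controls and from 2.94 to 3.46 at 1000 cGy, where 2 probes were higher and 1 was lower (0 higher and 3 lower after quantile normalization). NK cell markers were higher in 1 of 2 probes at 1000 cGy and erythroid markers in 2 of 4, with 1 lower, and after quantile normalization these counts were 0 higher and 1 lower, and 1 higher and 2 lower. In such bulk samples, fewer cells of a type and less RNA per cell cannot be told apart, and the part of the cell mixture in the values of the enzymes below was not tested.

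**Figure D1:**
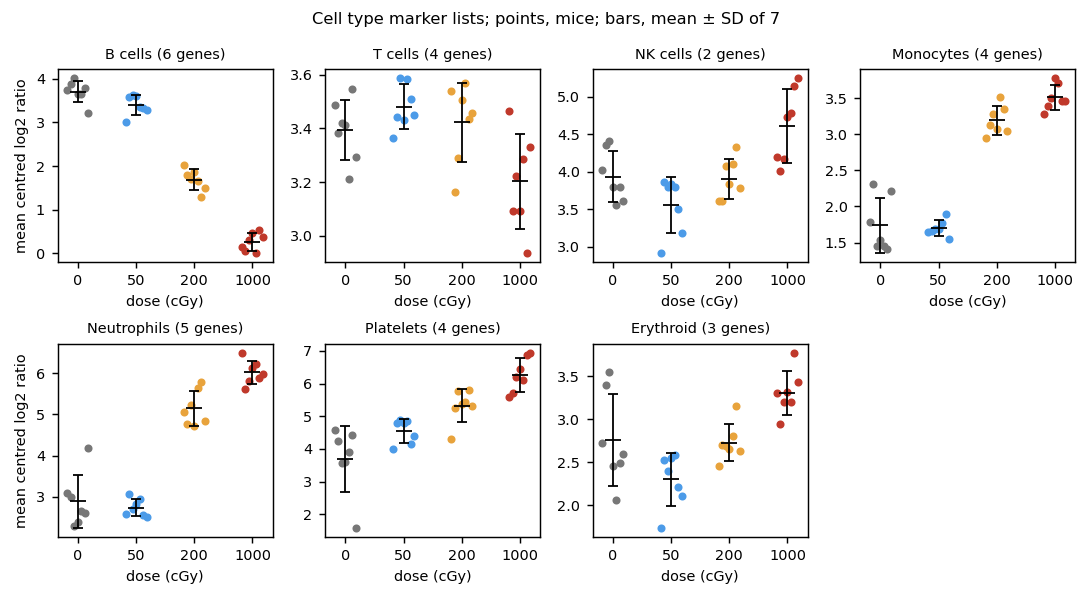
Mean centred log2 ratio of the measured genes of 7 cell type marker lists (y axis) against dose in cGy (x axis), 1 point per mouse, with bars for the mean ± SD of 7 mice. The B cell list lies between 3.23 and 4.02 in controls and between 0.01 and 0.53 at 1000 cGy, while the neutrophil list rises from a control median of 2.66 to 5.99 at 1000 cGy.

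At 50 cGy few of the enzymes moved. Otud1, an OTU deubiquitinase, and Ube2j1, a conjugating enzyme anchored in the endoplasmic reticulum, rose, while single probes of Usp47, Usp15 and Usp9x fell by 0.85, 0.74 and 0.57 on the log2 scale. Of the 70 probes 3 were called higher and 8 lower (15.7%), where 13.4% of all probes were called (8.23% higher and 5.13% lower; limma). The median log2 fold change was -0.09 over the members and -0.02 over all probes. Of the calls, 27.3% were higher among the members, against 61.6% among all probes, and without centring the member calls were 3 higher and 5 lower (37.5% higher).

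At 200 cGy more of the enzymes fell than rose. Usp1, which removes ubiquitin from proteins of crosslink repair and replication, Usp10, a deubiquitinase of p53 in human cells, 1 probe of Usp47, both probes of Usp15 and Otud4 were among the 20 probes called lower. The 3 probes called higher were of Ube2q2, Usp54 and Ube2v1. The members were called in 32.9% of cases, below the 43.1% of all probes (22.2% higher and 20.9% lower). Without centring these shares were 37.1% and 43%, but after quantile normalization they were 44.3% and 44.1%. Their median was -0.15, against 0.03 over all probes. Of the member calls 13% were higher, against 51.5% of the calls among all probes. This split became 1 higher and 25 lower without centring (3.85% higher, against 39.2% of all probes' calls) and 3 higher and 28 lower after quantile normalization.

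At 1000 cGy more probes fell and more rose than at the lower doses. Usp1, 1 probe of Usp47, Usp10, Usp53 and Otud4 had the lowest values, from -1.06 to -1.29. Usp20, Ube2l6, 1 probe of Ube2j2 and Ube2q2 had the highest, from 0.79 to 1.14. After quantile normalization these 4 rises became 0.30, -0.10, 0.15 and 0.15, and none was called. Of the 70 probes 13 were called higher and 26 lower (55.7%), below the 67.2% of all probes (38.3% higher and 28.9% lower). This order turned under the other scalings. The members were called in 74.3% without centring, against 63.8% of all probes, and in 65.7% after quantile normalization, against 58.8%. The median over the members was -0.16, against 0.13 over all probes, and 33.3% of the member calls were higher, against 57% among all probes. The falls and the rises differed under other scalings: the split was 7 higher and 45 lower without centring (13.5% higher, against 37.5% of all probes' calls), and 6 higher and 40 lower after quantile normalization (13% higher, against 45.1%). Of the 26 falls 22 were called in every alternative fit of single probes and every fit with an array left out that tested them. Of the 13 rises 4 were. Usp53, among these 22, was tested in 7 of 8 alternative fits and in 23 of 28 fits with an array left out.

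By family, the Usp probes had the largest share of falls at both higher doses. At 1000 cGy, 15 of 28 Usp probes were called lower and 4 higher (median -0.31), 7 of 32 Ube2 probes lower and 7 higher (median -0.01), and 4 of 10 Uch and Otu probes lower and 2 higher (median -0.08). At 200 cGy the counts were 12 lower and 1 higher for Usp, 7 lower and 2 higher for Ube2, and 1 lower and 0 higher for Uch and Otu. At 50 cGy they were 3 lower and 0 higher, 5 lower and 2 higher, and 0 lower and 1 higher. For comparison, falls among all probes were 28.9% (1000 cGy), 20.9% (200 cGy) and 5.13% (50 cGy), and rises were 38.3%, 22.2% and 8.23%. The Usp share of falls was above these values, with 53.6% (1000 cGy), 42.9% (200 cGy) and 10.7% (50 cGy). The Ube2 share was 15.6% for 50 cGy, above all probes. It was 21.9% for each higher dose, so with centring below all probes for 1000 cGy and near them for 200 cGy. For Uch and Otu it was 40% (1000 cGy) and 10% (200 cGy). At 1000 cGy without centring the Usp probes were 21 lower and 3 higher, the Ube2 probes 17 and 3, and the Uch and Otu probes 7 and 1, and quantile normalization gave 19 lower and 3 higher Usp, 16 lower and 2 higher Ube2, and 5 lower and 1 higher Uch and Otu probes. The difference between families was not tested. Of the 56 genes 17 had no probe called at any dose.

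**Figure D2:**
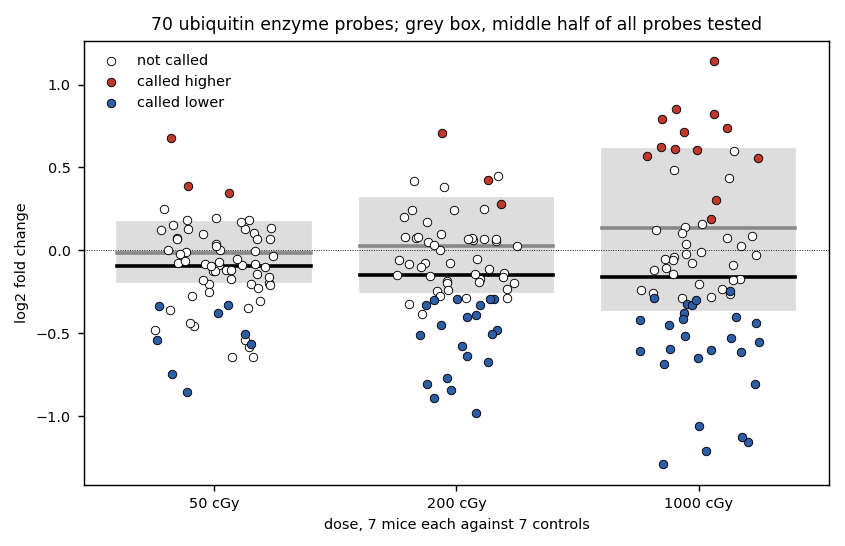
Log2 fold change against control (y axis) of the 70 probes at each dose in cGy (x axis); red and blue points are probes called higher and lower, white points were not called, the black line is the members' median and the grey line and box are the median and the middle 50% of all 16600 probes. The members' median lies below that of all probes at each dose (-0.09, -0.15 and -0.16 against -0.02, 0.03 and 0.13).

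**Figure D3:**
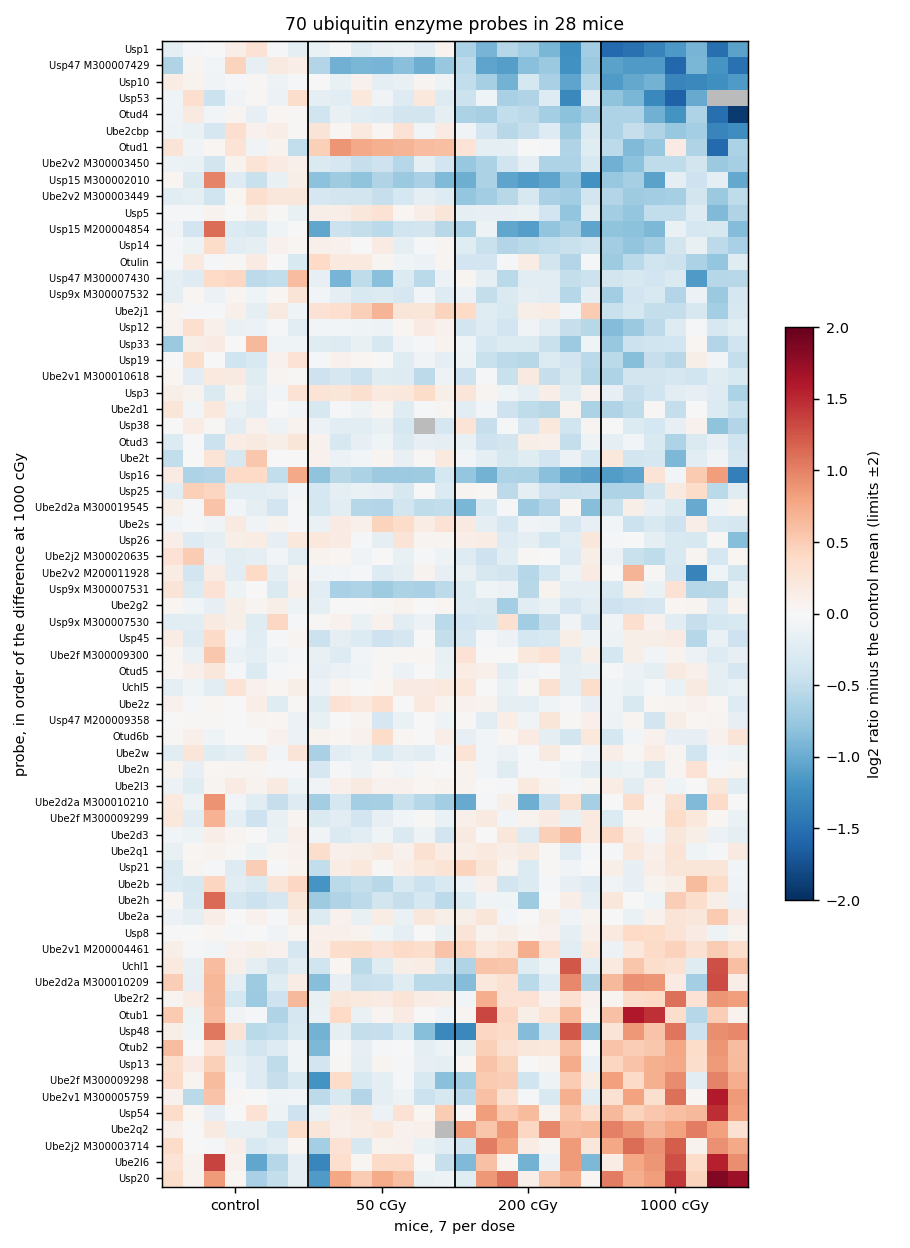
Centred log2 ratio minus the control mean of each probe (colour, limits ±2 log2 units) for the 70 probes (y axis, in order of the difference at 1000 cGy) in the 28 mice (x axis, 7 per dose); grey marks missing values. Usp1, Usp10, Usp53 and Otud4 turn blue from 200 cGy on, 1 Usp47 probe is blue from 50 cGy on, and Otud1 is red at 50 cGy only.

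Falls at both higher doses were found among the USP enzymes of DNA damage, p53 and chromatin, where 6 of 10 probes fell at 1000 cGy, 5 fell at 200 cGy, 1 fell at 50 cGy, and none rose. Of all probes 28.9%, 20.9% and 5.13% were called lower at these doses, and after quantile normalization 2 of the 10 were lower and 1 was higher at 50 cGy. Usp1 ran from -0.73 to -0.24 in controls (median -0.55), from -0.78 to -0.46 at 50 cGy (median -0.66), from -1.76 to -1.11 at 200 cGy (median -1.23) and from -2.08 to -1.47 at 1000 cGy (median -1.87). The mice given 50 cGy overlapped with the controls, and all mice at both higher doses lay below every control. Its log2 fold changes were -0.12, -0.81 and -1.29 (SE 0.107; adjusted p = 0.496, 5.45e-07 and 3.91e-11 from limma, n = 7), which is 0.409 times the control level at 1000 cGy.

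Usp10 had the same pattern. It ran from -0.94 to -0.69 in controls (median -0.87), from -1.02 to -0.75 at 50 cGy (median -0.95), from -1.90 to -1.19 at 200 cGy (median -1.50) and from -2.16 to -1.78 at 1000 cGy (median -1.98). Again both higher doses were clear of the controls and the 50 cGy mice were not. Its log2 fold changes were -0.06, -0.68 and -1.15 (SE 0.0907; adjusted p = 0.69, 6.46e-07 and 1.3e-11 from limma). Usp5, which takes apart free ubiquitin chains, was chosen after its values were seen. It had log2 fold changes of 0.17, -0.29 and -0.60 (adjusted p = 0.238, 0.0129 and 3.92e-06), although the call at 200 cGy was lost after quantile normalization (adjusted p = 0.0513).

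Usp16, which removes ubiquitin from histone H2A, was low at 50 and 200 cGy but not at 1000 cGy. It ran from 0.48 to 1.87 in controls (median 1.28), from 0.31 to 0.75 at 50 cGy, from 0.03 to 0.49 at 200 cGy and from -0.26 to 1.95 at 1000 cGy (median 1.05). The 1000 cGy mice spanned more than the whole control range. Only the difference at 200 cGy was called (-0.84, SE 0.272, adjusted p = 0.0129). Usp48 was not called at any dose (0.60 at 1000 cGy, SE 0.313, adjusted p = 0.0905), and Usp21, chosen after its values were seen, had values of 0.07, 0.07 and 0.11.

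Usp47, a deubiquitinase that acts on a polymerase of base excision repair in human cells, had 3 probes that did not give the same result. Probe M300007429 ran from -0.78 to 0.27 in controls (median -0.13), from -1.17 to -0.78 at 50 cGy (median -1.09), from -1.40 to -0.73 at 200 cGy (median -1.02) and from -1.75 to -1.09 at 1000 cGy (median -1.32). The 1000 cGy mice lay below every control, and at the lower doses the lowest control reached into the irradiated range. Its log2 fold changes were -0.85, -0.89 and -1.21 (SE 0.129; adjusted p = 0.000102, 2.32e-06 and 4.78e-09 from limma). Probe M300007430 had values of -0.48, -0.29 and -0.52, of which only the one at 1000 cGy was called (SE 0.173, adjusted p = 0.0104) and was lost with array weights. Probe M200009358 was called at no dose, with values of -0.10, 0.03 and -0.05 (SE 0.0804). The spread of this probe was narrow, with controls from -1.22 to -1.05 and 1000 cGy mice from -1.47 to -0.99.

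Other USP enzymes held falls and rises, with 8 lower and 4 higher of 17 probes at 1000 cGy, 6 lower and 1 higher at 200 cGy, and 2 lower and 0 higher at 50 cGy. At 1000 cGy 28.9% of all probes were lower and 38.3% higher, and at 200 cGy 20.9% and 22.2%. Without centring 13 of the 17 were lower and 3 higher at 1000 cGy, and 9 were lower with 0 higher at 200 cGy, while quantile normalization gave 11 lower and 3 higher at 1000 cGy and 10 lower and 1 higher at 200 cGy. Usp53, a member linked to cell junctions, ran from -1.13 to -0.35 in controls, from -0.96 to -0.48 at 50 cGy, from -1.98 to -0.78 at 200 cGy and from -2.31 to -1.50 at 1000 cGy, where 5 mice had a value. These 5 lay below every control. Its log2 fold changes were -0.09, -0.50 and -1.13 (adjusted p = 0.762, 0.0123 and 4.02e-06).

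Both probes of Usp15, which acts on TGF-beta signalling, fell at 200 and 1000 cGy. Probe M300002010 ran from 0.83 to 2.28 in controls (median 1.13), from 0.39 to 0.68 at 50 cGy, from 0.07 to 0.64 at 200 cGy and from 0.21 to 1.11 at 1000 cGy (median 0.62). All mice at 50 and 200 cGy lay below every control, and those at 1000 cGy overlapped with them. The differences from control were -0.74, -0.98 and -0.61 (SE 0.167; adjusted p = 0.00429, 2.31e-05 and 0.00225). Control replicate 3 was the highest, and without it they were -0.58, -0.81 and -0.45, still called at each dose (adjusted p = 0.00721, 1.8e-05 and 0.00486). Probe M200004854 had values of -0.54, -0.77 and -0.60 (adjusted p = 0.0536, 0.00135 and 0.00694), and without control replicate 3 it had -0.36, -0.59 and -0.41.

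Usp9x, a large deubiquitinase encoded on the X chromosome, had 3 probes with 3 different outcomes. Probe M300007531 ran from 0.85 to 1.42 in controls, from 0.43 to 0.93 at 50 cGy, from 0.57 to 1.21 at 200 cGy and from 0.57 to 1.42 at 1000 cGy. It was called at 50 cGy only (-0.57, SE 0.126, adjusted p = 0.00388), where 1 mouse overlapped with the controls. Probe M300007532 fell at 200 and 1000 cGy (-0.29 and -0.45, SE 0.0954, adjusted p = 0.0144 and 0.000173), and probe M300007530 had values of -0.12, -0.29 and -0.14 with no call.

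Among the rises, Usp54 was the only member whose 1000 cGy mice all lay above the controls. It ran from -1.62 to -0.85 in controls (median -1.23), from -1.35 to -0.70 at 50 cGy, from -1.19 to -0.37 at 200 cGy and from -0.77 to 0.26 at 1000 cGy (median -0.57). These are log2 fold changes of 0.13, 0.43 and 0.74 (SE 0.151; adjusted p = 0.611, 0.023 and 0.00011). The call at 200 cGy was lost without centring (0.32, adjusted p = 0.0707), with array weights, and without control replicate 7 or replicate 2 at 200 cGy. Usp20, which acts on membrane receptors, ran from 1.70 to 3.20 in controls, from 1.21 to 3.12 at 50 cGy, from 2.10 to 3.42 at 200 cGy and from 2.78 to 4.19 at 1000 cGy. The groups overlapped at each dose. It rose at 1000 cGy (1.14, SE 0.282, adjusted p = 0.000884) but not after quantile normalization (0.30, adjusted p = 0.22).

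**Figure D4:**
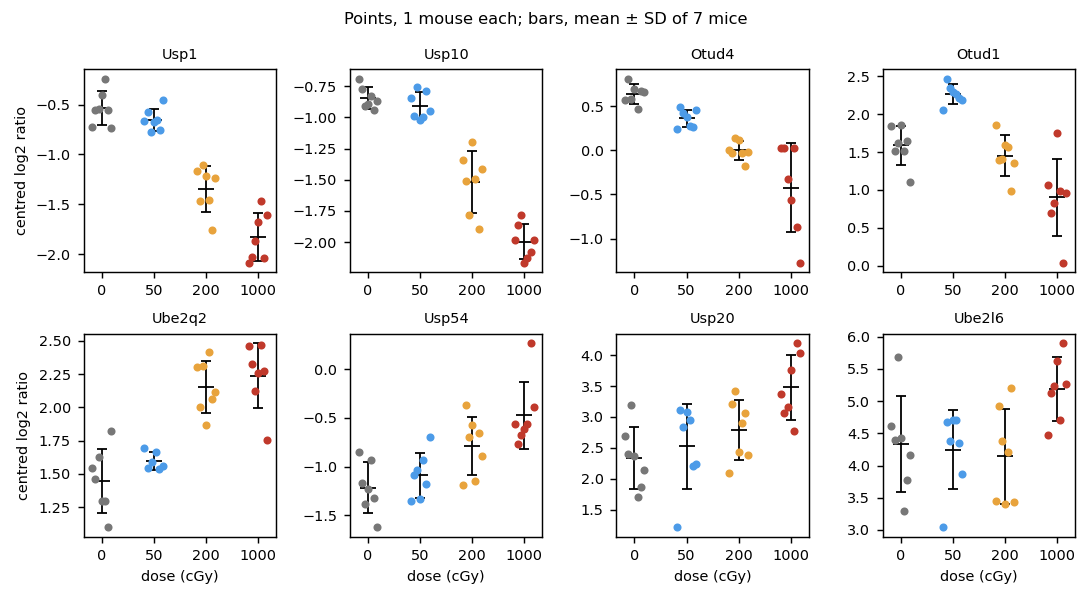
Centred log2 ratio (y axis, a separate scale for each gene) of 8 members against dose in cGy (x axis), 1 point per mouse, with bars for the mean ± SD of 7 mice. Usp1, Usp10 and Otud4 fall at 200 and 1000 cGy, Otud1 lies between 2.06 and 2.47 at 50 cGy and below that at 1000 cGy, and the 1000 cGy mice of Usp54 lie above every control.

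Of the 8 OTU enzymes 6 were called at 1000 cGy, 4 lower and 2 higher, where 28.9% and 38.3% of all probes were. At 200 cGy 1 was lower, against 20.9% of all probes, and at 50 cGy 1 was higher, against 8.23%. Without centring the counts were 6 lower and 1 higher at 1000 cGy and 2 lower at 200 cGy, and after quantile normalization 5 lower and 1 higher, and 3 lower. Otud1 ran from 1.10 to 1.86 in controls (median 1.63), from 2.06 to 2.47 at 50 cGy (median 2.26), from 0.98 to 1.86 at 200 cGy (median 1.40) and from 0.04 to 1.75 at 1000 cGy (median 0.96). Every 50 cGy mouse lay above every control, the 200 cGy mice covered the control range, and the 1000 cGy mice reached below it. Otud1 had log2 fold changes of 0.68, -0.14 and -0.68 (SE 0.166; adjusted p = 0.00794, 0.543 and 0.000783), and from 50 to 200 cGy the difference was -0.81 (adjusted p = 0.000327). The calls at 50 and 1000 cGy were made under each alternative fit and with each array left out.

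Otud4, which serves as a scaffold for other deubiquitinases and cuts chains itself, fell at the higher doses. It ran from 0.47 to 0.81 in controls (median 0.66), from 0.24 to 0.49 at 50 cGy (median 0.38), from -0.18 to 0.14 at 200 cGy (median -0.02) and from -1.27 to 0.03 at 1000 cGy (median -0.33). The 200 and 1000 cGy mice lay below every control, and the highest 50 cGy mouse reached just above the lowest control. The log2 fold changes were -0.28, -0.64 and -1.06 (SE 0.142; adjusted p = 0.195, 0.000522 and 2.48e-07). Otulin, which cuts the linear ubiquitin chains of NF-kB signalling, had values of 0.10, -0.23 and -0.53 (adjusted p = 0.58, 0.0895 and 0.000135). Otub2 rose at 1000 cGy (0.60, SE 0.148, adjusted p = 0.000825). Otub1, an inhibitor of Ube2n chosen after its values were seen, was just under the threshold (0.57, adjusted p = 0.0495) and was called in 6 of 28 fits with an array left out.

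Otud1, called higher at 50 cGy and lower at 1000 cGy, and Otud4, called lower at both higher doses, are shown with their promoters, as the 300 bases around the start of the gene (RefSeq, GRCm38.p6), since a promoter window was at hand for 45 of the 56 genes. The windows and motifs were chosen after the values were seen. Capitals mark matches on either strand to an E-box (CACGTG), a cAMP response element (CRE, TGACGTCA) or a GC box (GGGGCGGGG). Otud1 lies at chr2:19657481-19657780 on the plus strand and holds 1 E-box, and Otud4 lies at chr8:79639426-79639725 on the plus strand and holds 1 GC box.
Otud1: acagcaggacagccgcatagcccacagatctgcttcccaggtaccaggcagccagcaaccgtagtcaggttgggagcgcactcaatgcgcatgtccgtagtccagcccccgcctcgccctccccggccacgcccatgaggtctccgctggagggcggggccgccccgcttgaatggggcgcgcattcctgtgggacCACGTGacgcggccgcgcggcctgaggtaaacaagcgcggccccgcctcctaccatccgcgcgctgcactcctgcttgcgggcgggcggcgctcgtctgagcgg
Otud4: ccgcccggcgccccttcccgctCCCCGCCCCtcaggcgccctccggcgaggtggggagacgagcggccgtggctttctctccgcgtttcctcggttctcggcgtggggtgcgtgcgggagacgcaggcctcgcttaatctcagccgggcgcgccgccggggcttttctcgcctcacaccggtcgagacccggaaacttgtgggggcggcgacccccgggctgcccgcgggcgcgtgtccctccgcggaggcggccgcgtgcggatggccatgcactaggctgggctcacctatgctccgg
An E-box was found in 13.3% of the 45 genes, against 8.09% of 27025 genes with a window, and a GC box in 35.6% against 12.9%. A match describes the letters only and says nothing of binding.

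Among proteasome-bound deubiquitinases Usp14, which trims chains from proteins held by the proteasome, fell at both higher doses. It ran from -2.18 to -1.60 in controls (median -1.99), from -2.16 to -1.81 at 50 cGy, from -2.56 to -2.22 at 200 cGy (median -2.42) and from -2.76 to -2.11 at 1000 cGy (median -2.61). The 200 cGy mice lay below every control, and at 1000 cGy the groups overlapped. Relative to control, Usp14 had log2 values of 0.03, -0.45 and -0.55 (SE 0.096; adjusted p = 0.884, 0.000368 and 1.55e-05). Uchl5, the other enzyme of this class among the members, had values of 0.07, 0.08 and -0.08 with no call, and Uchl1, best known from neurons, had -0.17, 0.17 and 0.44 (adjusted p = 0.0925 at 1000 cGy).

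Conjugating enzymes of the DNA damage response were called in 5 of 10 probes at 50 cGy, 4 lower and 1 higher, in 3 lower and 1 higher at 200 cGy, and in 3 lower and 2 higher at 1000 cGy. The 10 probes are of 6 genes, and the calls at 50 cGy were all of Ube2b, Ube2v1 and Ube2v2. Of all probes 13.4% were called at 50 cGy, 43.1% at 200 cGy and 67.2% at 1000 cGy. Without centring 1 of the 10 was lower and 1 higher at 50 cGy, 3 were lower with 0 higher at 200 cGy, and 6 lower with 1 higher at 1000 cGy. Quantile normalization gave 5 lower and 2 higher at the highest dose. Ube2v2 is a partner without catalytic activity of Ube2n, with which it builds chains in the tolerance of DNA damage. Its probe M300003449 ran from -1.30 to -0.59 in controls (median -0.87), from -1.36 to -1.10 at 50 cGy (median -1.25), from -1.68 to -1.22 at 200 cGy (median -1.55) and from -1.65 to -1.27 at 1000 cGy (median -1.57). All irradiated groups overlapped with the controls at the lower end. Relative to control, this probe had log2 values of -0.33, -0.58 and -0.61 (SE 0.1; adjusted p = 0.0266, 2.75e-05 and 6.75e-06). Probe M300003450 had values of -0.38, -0.51 and -0.65, also called at each dose (adjusted p = 0.0177, 0.000241 and 4.97e-06). Both calls at 50 cGy were lost without centring (adjusted p = 0.113 and 0.0736), and the third probe, M200011928, was called at no dose (-0.10, -0.24 and -0.20).

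The probes of Ube2v1, the related partner of Ube2n in NF-kB signalling, went in opposite directions. Probe M200004461 had values of 0.35, 0.28 and 0.30, each called (adjusted p = 0.037, 0.0457 and 0.0186), and without control replicate 7 it was called at no dose (0.29, 0.22 and 0.25; adjusted p = 0.0866, 0.116 and 0.0531). Without centring its calls at 200 and 1000 cGy were lost (0.18 and 0.05; adjusted p = 0.286 and 0.722). Probe M300010618 had -0.33, -0.29 and -0.38, each called (adjusted p = 0.0329, 0.0222 and 0.0024), though the 50 cGy call was kept in only 20 of 28 fits with an array left out and was lost without centring (adjusted p = 0.066). Its call at 200 cGy was lost after quantile normalization (-0.22, adjusted p = 0.0897) and with only the groups compared in the fit. Probe M300005759 was called at 1000 cGy only (0.72, SE 0.205, adjusted p = 0.00333). Ube2n itself, chosen after its values were seen, had values of -0.07, -0.08 and -0.02 with no call. The probes of Ube2v1 gave no single direction.

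**Figure D5:**
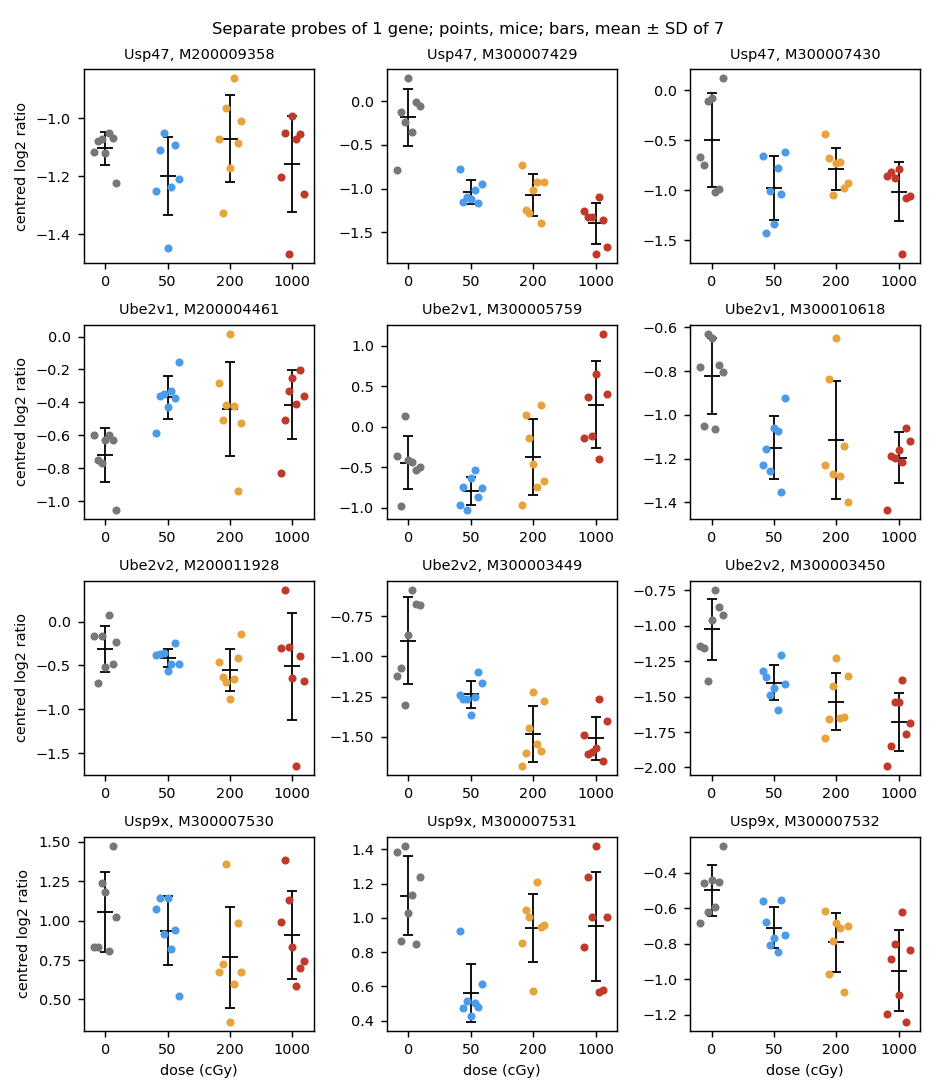
Centred log2 ratio (y axis, a separate scale for each probe) against dose in cGy (x axis) for the 3 probes each of Usp47, Ube2v1, Ube2v2 and Usp9x, 1 point per mouse, with bars for the mean ± SD of 7 mice. Probe M300007429 of Usp47 falls at each dose while probe M200009358 has values of -0.10, 0.03 and -0.05, and the Ube2v1 probes move in opposite directions.

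Ube2b, the conjugating enzyme of postreplication repair related to yeast Rad6, fell at 50 cGy. It ran from 1.06 to 1.80 in controls (median 1.15), from 0.20 to 1.08 at 50 cGy (median 0.89), from 1.01 to 1.47 at 200 cGy and from 1.21 to 2.01 at 1000 cGy. The highest 50 cGy mouse lay just above the lowest control, and replicate 1 was the lowest of them. The log2 fold changes were -0.54, -0.16 and 0.13 (SE 0.147; adjusted p = 0.0153, 0.409 and 0.454), and without replicate 1 at 50 cGy the fall was -0.43 (adjusted p = 0.0324). Quantile normalization turned the value at 1000 cGy to -0.37, which was then called lower (adjusted p = 0.0492). Ube2h, a conjugating enzyme of maturing red cells, had a fall of -0.51 at 50 cGy at the edge of the threshold (SE 0.173, adjusted p = 0.0494), which was kept in 9 of 28 fits with an array left out. Control replicate 3 was its highest sample at 3.21, and without it the value was -0.32 (adjusted p = 0.111).

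These 2 genes were the only ones of the 45 with a window whose promoter holds a CRE (4.44%, against 2.03% of 27025 genes). For each, the first of 2 RefSeq windows is printed, both on the minus strand, at chr11:52000737-52001036 for Ube2b, with 3 E-boxes and the CRE, and at chr6:30304490-30304789 for Ube2h, with a GC box and the CRE. No match overlaps another.
Ube2b: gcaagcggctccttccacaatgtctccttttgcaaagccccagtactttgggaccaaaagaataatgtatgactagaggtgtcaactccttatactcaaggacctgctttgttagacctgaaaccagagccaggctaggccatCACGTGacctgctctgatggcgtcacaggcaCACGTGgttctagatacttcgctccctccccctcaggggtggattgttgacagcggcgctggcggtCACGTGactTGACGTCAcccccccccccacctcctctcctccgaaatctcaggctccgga
Ube2h: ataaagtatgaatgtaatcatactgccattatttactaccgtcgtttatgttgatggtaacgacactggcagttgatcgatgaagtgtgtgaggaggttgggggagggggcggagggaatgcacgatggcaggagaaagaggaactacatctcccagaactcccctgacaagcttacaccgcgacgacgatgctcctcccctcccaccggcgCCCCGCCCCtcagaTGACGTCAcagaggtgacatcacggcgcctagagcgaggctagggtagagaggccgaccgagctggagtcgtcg
The windows of Usp47 and Usp10 hold none of the motifs searched, which also took in CCGGAAG (26.7% of the members, 9.93% of all genes), CCAAT (22.2% and 41.1%) and an interferon-stimulated response element (0 of 45, and 3.99% of all genes).

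The conjugating enzymes of the endoplasmic reticulum had opposite ends. Ube2j1, which works in the disposal of misfolded proteins, ran from -0.33 to 0.06 in controls (median -0.16), from 0.11 to 0.56 at 50 cGy (median 0.21), from -0.43 to 0.38 at 200 cGy (median -0.01) and from -0.80 to -0.44 at 1000 cGy (median -0.57). Every 50 cGy mouse lay above every control, and every 1000 cGy mouse lay below. The log2 fold changes were 0.39, 0.08 and -0.44 (SE 0.107; adjusted p = 0.0163, 0.582 and 0.000838), with the first and last called under each alternative fit and with each array left out. Ube2j2 had 1 probe that rose at 1000 cGy (M300003714, 0.82, SE 0.191, adjusted p = 0.000495, but 0.15 and adjusted p = 0.39 after quantile normalization) and 1 that was not called (M300020635, -0.23).

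Conjugating enzymes for ubiquitin-like proteins were called at 1000 cGy only, higher in 2 of 5 probes (0 higher and 2 lower without centring, 0 and 1 after quantile normalization, which also gave 1 lower at 200 cGy). Of all probes 38.3% were called higher and 28.9% lower at 1000 cGy, so this count is near the share of all probes. Ube2l6 loads ISG15, a ubiquitin-like protein induced by interferon. It ran from 3.30 to 5.69 in controls (median 4.40), from 3.04 to 4.71 at 50 cGy, from 3.40 to 5.20 at 200 cGy and from 4.48 to 5.90 at 1000 cGy (median 5.23). The groups overlapped at each dose. The log2 fold change at 1000 cGy was 0.85 (SE 0.33, adjusted p = 0.0253), but it was 0.60 without centring (adjusted p = 0.0787) and -0.10 after quantile normalization (adjusted p = 0.703), and the call was lost without control replicate 5 or 6 or replicate 4 or 6 at 1000 cGy. Ube2f, which loads NEDD8, had 1 of 3 probes called (M300009298, 0.62, SE 0.231, adjusted p = 0.0202), and after quantile normalization that probe was called lower (-0.33, adjusted p = 0.0302).

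Of the remaining conjugating enzymes, Ube2q2 ran from 1.10 to 1.82 in controls (median 1.46), from 1.54 to 1.69 at 50 cGy, from 1.87 to 2.41 at 200 cGy (median 2.12) and from 1.75 to 2.47 at 1000 cGy (median 2.27). The 200 cGy mice lay above every control, and the lowest 1000 cGy mouse lay within the control range. Its log2 fold changes were 0.15, 0.71 and 0.79 (adjusted p = 0.41, 8.46e-06 and 7.45e-07), and after quantile normalization the value at 1000 cGy was 0.15 (adjusted p = 0.343). Ube2cbp carries a name of this family but encodes a ligase-like protein that binds a conjugating enzyme. It had values of 0.13, -0.39 and -0.81 (SE 0.125; adjusted p = 0.514, 0.012 and 2.57e-06), and its 1000 cGy mice, from -0.57 to 0.28, lay below the controls, from 0.41 to 1.08.

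Cell cycle enzymes were Ube2r2, a conjugating enzyme of cullin-RING ligases that rose at 1000 cGy (0.56, SE 0.183, adjusted p = 0.00937, lost without centring and after quantile normalization), and Ube2s, which extends chains for the anaphase-promoting complex and fell (-0.24, SE 0.0973, adjusted p = 0.0286). The general conjugating enzymes of the Ube2d group and its relatives were called in 2 of 7 probes at 200 cGy and in 1 at 1000 cGy, all lower (4 lower at 1000 cGy without centring or after quantile normalization). Of all probes 20.9% were called lower at 200 cGy and 28.9% at 1000 cGy. Ube2d1 had values of -0.09, -0.33 and -0.32 (SE 0.116; adjusted p = 0.645, 0.0226 and 0.0164). Of 3 probes of Ube2d2a, 1 was called, at 200 cGy (M300019545, -0.48, SE 0.164, adjusted p = 0.0181), and this call was lost without control replicate 3.

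Next, neighbouring doses were compared. From 50 to 200 cGy, Otud1, Usp1, Usp10 and Ube2cbp fell by 0.81, 0.69, 0.61 and 0.52 on the log2 scale, and Ube2q2 rose by 0.56. In all 8 member probes were called higher and 15 lower (32.9%), where 39.2% of all probes were called (18.9% higher and 20.2% lower), and no rise was kept under every alternative fit and with every array left out. The split was 2 higher and 21 lower without centring and 3 higher and 20 lower after quantile normalization. The 8 rises became 3 without replicate 1 at 50 cGy, 4 without replicate 6 at 200 cGy, and 5 without replicate 3 at 50 cGy or replicate 2 at 200 cGy.

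From 200 to 1000 cGy, 4 member probes were called higher and 10 lower (20%), where 34.1% of all probes were called (19.2% higher and 14.9% lower). The 10 that fell further were of Usp53 (-0.62), Otud1 (-0.55), Ube2j1 (-0.52), Usp1 (-0.48), Usp10 (-0.48), Otud4 (-0.42), Ube2cbp (-0.42), Usp3 (-0.33), Usp5 (-0.30) and Otulin (-0.30). Those higher were of Ube2l6 (1.05, adjusted p = 0.0169), Usp48 (0.80, adjusted p = 0.0497), Ube2v1 (probe M300005759, 0.64) and Usp13 (0.37), the last named after its value was seen, as were Usp3 and Usp5. Of the 10 falls 6 were called in every alternative fit of single probes and every fit with an array left out that tested them. Of the 4 rises 0 were. Usp53, among these 6, was tested in 7 of 8 alternative fits and in 23 of 28 fits with an array left out. The step of Ube2l6 became 0.44 after quantile normalization (adjusted p = 0.122), that of Usp48 was called in 3 of 8 alternative fits and 8 of 28 fits with an array left out, and that of Usp13 in 5 of 8 and 19 of 28. The split was 2 higher and 16 lower without centring and 1 higher and 12 lower after quantile normalization. The step from 50 to 200 cGy had 1 member probe wholly above and 7 wholly below (8.6% and 9.21% of all probes). From 200 to 1000 cGy only Ube2j1 had groups without overlap, where 1.91% of all probes had none with the higher dose above and 2.37% none with it below.

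At 200 and 1000 cGy a smaller share of the 70 member probes than of all probes had groups that did not overlap with the controls. For 50 cGy the counts were small, and a difference from the shares of all probes was not tested. At 50 cGy 4 probes lay wholly above (Otud1, Ube2j1, Ube2q1 and 1 Ube2v1 probe) and 1 wholly below (Usp15), where 3.15% and 1.9% of all probes did. At 200 cGy 1 lay above (Ube2q2) and 5 below (Usp1, Usp10, Otud4, Usp14 and 1 Usp15 probe), where 9.48% and 9.6% of all probes did. At 1000 cGy 1 lay above (Usp54) and 8 below (Usp1, Usp10, Usp47, Usp53, Otud4, Ube2cbp, Ube2j1 and Usp5), where 13.7% and 14.9% did.

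Other genes of the ubiquitin system were read from lists that do not share members with the enzymes above. Of 16 probes listed under other deubiquitinase families, 10 were lower and 3 higher at 1000 cGy (11 and 0 without centring), where 28.9% of all probes were lower and 38.3% higher. The lower ones included Stambpl1 (-1.28) and Psmd7 (-0.72), the latter a proteasome subunit and not named here as a deubiquitinase. Of 22 probes of cullin-RING subunits 12 were lower and 3 higher (13 and 1 without centring, 9 and 3 after quantile normalization), with Cand1, which exchanges their substrate receptors, at -0.81. Ddb2, a damage sensor of such a ligase, was called higher at 50 cGy (0.30, adjusted p = 0.0441, lost without centring) and lower at 200 cGy (-0.25, adjusted p = 0.0419) and 1000 cGy (-0.53). Of 4 activating enzymes 3 were lower and 1 higher (0 higher after quantile normalization), with Uba6 at -0.89 and Uba3, which activates NEDD8, at -0.51. Of 16 HECT ligase probes 6 were lower and 5 higher (10 and 3 without centring, 7 and 3 after quantile normalization), with Ube3a at -0.66 and Nedd4l at -0.57.

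The remaining lists were the ISG15 pathway, ligases that act on p53, and ubiquitin and ubiquitin-like genes. Of all probes 38.3% were higher and 28.9% lower at 1000 cGy, and 22.2% and 20.9% at 200 cGy. Of 8 probes of the ISG15 pathway 7 were higher and 1 lower at 1000 cGy (3 and 1 after quantile normalization), with the ligase-like Herc6 at 2.13 and Usp18, which removes ISG15, at 1.53. At 50 cGy none of the 8 was called and at 200 cGy 4 were higher and 1 lower (2 and 1 after quantile normalization). Of 17 probes of ligases that act on p53, 4 were higher and 5 lower at 1000 cGy (2 and 8 without centring, 5 and 5 after quantile normalization). Their median was 0.02, against 0.13 over all probes. Mdm2, the main p53 ligase and itself induced by p53, had log2 fold changes of 0.06, 0.53 and 1.34 (SE 0.11), and Topors had -0.86 at 1000 cGy. Of 7 probes of ubiquitin and ubiquitin-like genes 4 were higher and 1 lower (2 and 1 under both other scalings), with Nedd8 at 1.03 and Urm1 at 0.86.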

How the data were processed

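PB MNCs were isolated by density centrifugation, and oligo(dT)-primed amplified RNA was hybridized to 2-colour arrays of Operon mouse oligonucleotides. The authors took the median of ratios (sample over reference), dropped spots where a channel was under 100, and deposited log2 ratios for 16722 probes. How arrays were normalized to each other is not stated in the sources used here, and the table has no intensities, so the number of arrays sets the precision. That the values are log2 was tested on the table: 97.4% of ratios under 4 are whole thousandths after conversion (tolerance 6e-05). Of all values 2174 are missing, 14 to 439 per array. The deposited values were not imputed here. Group means (4) were fitted with limma 3.58.1 under R 4.3.3 to median-centred ratios of the 16600 probes with at least 5 values per group, and 122 probes were left out. The fit was tested on simulated data.

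Gene names came from the platform annotation, and all 70 member probes matched RefSeq with the same symbol. Probes were not averaged, since the probes of 5, 5 and 6 of the 8 genes with several probes disagreed in call at 50, 200 and 1000 cGy. Named were the 6 largest called rises and falls per dose, probes called alike at all 3 doses, the 2 probes of smallest adjusted p at 1000 cGy in each role class and pathway list, Usp47, the 3 largest called differences per step and direction, and all probes of a gene that differ. The members and lists were chosen with earlier results of these data known, so counts of members are a description. The comparisons at the 3 doses share their controls. The human samples and PCR values of the study were not analysed here.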

Additional observations from a re-analysis of the deposited data

Results flagged for a closer look

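In 17 of 180 groups of 7 mice (9.44%, on 16 of the 45 named probes), the highest or lowest mouse stood far from the other mice of its dose by Dixon's test, which chance does in about 1 group in 20. Control replicate 3 stood high for Usp15 (1.96 for probe M200004854 and 2.28 for M300002010, with the next mice at 0.87 and 1.40), for Ube2h (3.21, next 2.32) and for Ube2f probe M300009300 (0.90, next 0.41). Without it the Usp15 calls at 200 and 1000 cGy were kept and the Ube2h call at 50 cGy was lost (adjusted p = 0.111 from limma), while Ube2h at 1000 cGy gained one (0.33, adjusted p = 0.024). Control replicate 7 stood low for Ube2v1 probe M200004461 (-1.05, next -0.77) and Usp47 probe M200009358 (-1.22, next -1.12). Without it that Ube2v1 probe lost its call at each dose.

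Replicate 1 at 50 cGy stood low for Otub2 (-0.47), Ube2b (0.20), Ube2r2 (0.69) and Usp15 probe M200004854 (-0.18), and high for Usp9x probe M300007531 (0.93). Without it Ube2b kept its call at 50 cGy (-0.43, adjusted p = 0.0324) and so did Usp9x (-0.63, adjusted p = 0.00159). Replicate 5 at 1000 cGy stood low for Ube2d2a probe M300010210 (0.63), Ube2j2 probe M300003714 (1.59) and Usp47 probe M300007430 (-1.64), and high for Uchl5 (-0.48). Without it Ube2j2 and that Usp47 probe kept their calls (0.95, adjusted p = 5.75e-05, and -0.41, adjusted p = 0.0309). Replicate 1 at 1000 cGy stood low for Ube2v1 probe M300010618 (-1.43), and replicate 6 at 1000 cGy stood high for Usp54 (0.26), and neither changed a call when left out (adjusted p = 0.00715 and 0.000278).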

How the results depend on the processing

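Without centring, the counts of member probes became 5 lower at 50 cGy, 1 higher at 200 cGy, 7 higher and 45 lower at 1000 cGy, 2 higher from 50 to 200 cGy, and 2 higher and 16 lower from 200 to 1000 cGy, and the medians of members and all probes became -0.25 and -0.073 at 200 cGy and -0.41 and -0.12 at 1000 cGy. After quantile normalization there were 5 higher at 50 cGy, 6 higher and 40 lower at 1000 cGy, 3 higher from 50 to 200 cGy and 1 higher from 200 to 1000 cGy, with medians of -0.35 and -0.022 at 1000 cGy. Quantile normalization also turned 5 values at 1000 cGy: Ube2b (-0.37), Ube2d2a probe M300010210 (-0.49), Ube2f probe M300009298 (-0.33), Ube2h (-0.54) and Ube2l6 (-0.10). Array weights gave 5 higher and 15 lower at 50 cGy and 10 higher from 200 to 1000 cGy. With only the groups compared in the fit, the step from 200 to 1000 cGy had 2 higher and 6 lower. Averaging the probes of a gene gave 5 lower at 50 cGy and 2 higher from 200 to 1000 cGy, and, since the average mixes probes of opposite sign, it turned Ube2j2 probe M300020635 at 1000 cGy (0.30), Ube2v1 probe M200004461 at 50 cGy (-0.11), Ube2v1 probe M300010618 at 200 and 1000 cGy (0.019 and 0.22) and Usp47 probe M200009358 at 200 cGy (-0.38). For the other changes the cause was not tested.

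With each array left out, the counts ranged from 2 to 3 higher and 5 to 11 lower at 50 cGy (5 without control replicate 7), from 1 to 4 and 17 to 21 at 200 cGy (1 higher without control replicate 7 or replicate 2 at 200 cGy), from 10 to 16 and 24 to 28 at 1000 cGy, from 3 to 10 and 11 to 16 from 50 to 200 cGy, and from 1 to 10 and 8 to 12 from 200 to 1000 cGy. This last count of 4 higher became 7 without control replicate 3; 1, 8, 2, 2, 10 and 2 without replicates 1, 2, 4, 5, 6 and 7 at 200 cGy; and 2, 10 and 1 without replicates 4, 5 and 6 at 1000 cGy. The replicate numbers do not pair the mice: over 42 pairs with the same number the mean r of deviations was -0.02 (lowest -0.42), against 0.00189 for other pairs, and 3 of 28 mice were closest to their own number. A fit with the replicate block left 132 of 135 named values on their side of the threshold and lost 3 calls (Ube2h at 50 cGy, Ube2v1 probe M200004461 at 50 and 200 cGy). Robust moderation and the limit of 2 values per group changed none of the 135. Without intensities the part of signal over background cannot be given.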
